A study of Sus scrofa with 20 samples.

Results

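Splicing factors and RNA helicases were followed here as 108 genes of the 6765 that the porcine array named by a single gene symbol. They are the genes whose symbols begin with SRSF, SNRP, HNRNP, SF3, PRPF, U2AF, LSM, RBM, DDX or DHX, the innate immune sensor DDX58 being left out by the rule. The rule itself used gene names only and no measured value, but it was chosen with earlier results of these data known. The 108 genes were covered by 167 probe sets, sets of short oligonucleotides that report on one transcript region. Of these genes, 69 had 1 probe set and 39 had several, up to the 6 of SRSF6. The brightest probe set of a gene, by its mean over the 20 arrays, gave the gene's value, and the other probe sets were kept to see whether they gave the same answer.

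The arrays measured kidney RNA of 20 pigs in a model of neurologic death (ND), the loss of brain function that precedes most deceased organ donation. The 10 control animals had a burr hole, catheters and anaesthesia, and the 10 ND animals had the same preparation and then inflation of a subdural balloon, with ND ascertained. All animals were ventilated for 6 hours, with saline boluses of 2 cc/kg as needed to keep mean arterial pressure above 35 mmHg, before kidney was taken and frozen. No transgene, drug arm or sham inflation is named, and the sources used here give no breed, sex or age. Each array stands for 1 animal, named below by group and animal number (ND_47, Control_199).

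Splicing removes introns from new transcripts through the spliceosome, which assembles from small nuclear ribonucleoproteins (snRNPs) and many loosely bound proteins. SR proteins (SRSF genes) bind exons and favour their use, while hnRNP proteins coat the transcript and often oppose them, so that the balance between both sets exon choice. The SNRP and LSM genes encode the protein rings and particle-specific subunits of the snRNPs. SF3 and U2AF proteins recognise the branch point and the 3' splice site, and several PRPF proteins form or activate the tri-snRNP. DEAD-box (DDX) and DEAH-box (DHX) helicases use ATP to remodel RNA in splicing, ribosome production, export and decay. Many SR and hnRNP genes are known to make alternatively spliced transcripts of their own, so probe sets of 1 gene can report on different transcripts.

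Values are log2 signals as deposited, so a difference of 1 is a doubling. Array medians lay between 5.09 and 5.35 and were 0.09 higher in ND arrays (permutation test, two-sided p = 0.00656, adjusted p = 0.0262 over 12 array measures). The hybridization control bioB was 0.39 lower (permutation p = 0.00108, adjusted p = 0.00648). The 3' minus 5' signals of 3 control genes, a sign of RNA length, were above 0 in both groups. Their means in ND and control arrays were 4.01 and 4.14 for actin, 1.67 and 1.85 for GAPDH, and 0.96 and 1.10 for EF1A. The two-sided permutation p were 0.681, 0.0858 and 0.197 in that order. Whether this excess of 3' signal bears on differences between probe sets of 1 gene was not tested. Array correlations ran from 0.954 to 0.994. ND_47 stood apart, with a mean correlation of 0.966 to the other arrays against at least 0.983 for every other animal. Signals under 2.79, the highest single value on any array of 23 control probe sets without a kidney target, were taken as background. The kidney markers measured, AQP1 and LRP2, had mean levels of 13.0 and 13.6 in ND kidney, so the labelled tissue was borne out by the 2 of 13 listed markers that the array named.

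Most splicing factor and helicase genes differed little between ND and control kidney. Of the 108, 7 passed the threshold as higher in ND (SRSF12, HNRNPH3, HNRNPK, HNRNPU, LSM2, DDX50 and DDX55) and 2 as lower (HNRNPH2 and SF3A1). The test was limma's moderated test with Benjamini-Hochberg adjustment over all 23999 probe sets and a threshold of 0.05. These 9 are 8.33% of the genes, and the share among all 6765 genes was 9.99%. The 7 higher ones are 6.48% against 5.44% of all genes, and the 2 lower ones 1.85% against 4.55%. At an unadjusted p under 0.05 the counts were 28 genes, or 25.9%, against 30.1% of all genes. The shares called therefore lay near the array-wide background. No member's brightest probe set separated all ND from all control animals, where 0.591% of all genes did. Counted by probe set, 13 of 167 were called (7.78%), 8 higher and 5 lower, against 7.13% of all probe sets.

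The differences were also small in size. No member reached a 2-fold difference, and 5 members (SRSF12, HNRNPL, DDX11, LSM2 and DDX50) differed by more than 0.5 log2 units, which is 4.63% against 12.7% of all genes. HNRNPL and DDX11 among them did not pass the threshold. The median difference over the 108 genes was -0.0019, with 53 genes above 0 and 55 below, and the median over all genes was -0.02. The median absolute difference was 0.10 for the members and 0.15 for all genes. For 79 of the 108 the 95% interval of the difference lay wholly within 0.5 log2 units of 0, that is 73.1% against 58.9% of all genes. Array medians being unequal, the balance of the calls depended on which scaling was used. After every array was shifted to the same median, 6 members were called higher and 19 lower, 23.1% of members against 30.3% of all genes. Over the whole array 1061 probe sets were then called higher and 7728 lower. The shift lowered the difference of every probe set by 0.09, the amount by which ND array medians were higher. The members called lower included U2AF2, DDX4, DDX25 and DDX60, whose signals stayed under background on all arrays. Quantile normalization called 8 members higher and 3 lower (10.2%, against 11.2% of all genes).

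**Figure D1:**
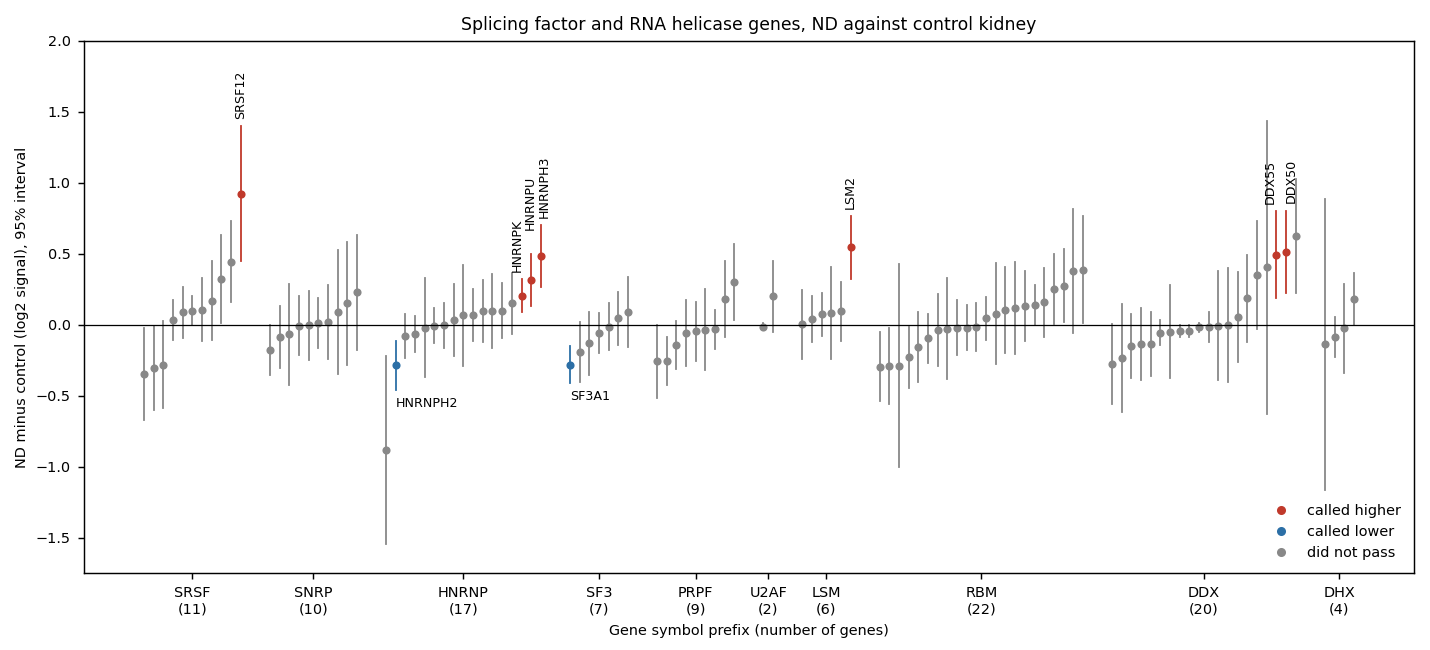
Difference between ND and control kidney (log2 signal, vertical axis) for the 108 genes, 1 point each with its 95% interval, grouped by symbol prefix with the number of genes in brackets. Red points were called higher (7), blue points lower (2) and grey points did not pass; most intervals cross 0.

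Signal was well above background for most of the group. Mean levels ran from 1.54 to 13.8, and 44 genes had a mean above 10. U2AF2, DDX4, DDX25, DDX54 and DDX60 stayed under background on all 20 arrays, so their small differences carry no information on expression. The other 103 genes were above background on at least 1 array, and they held all of the calls, 7 higher and 2 lower. When the fit was repeated with dim probe sets left out, 9 of them were called higher and 2 lower, DDX11 (adjusted p = 0.0347) and SRSF6 (0.0391) being added. That fit called 10.7% of the members it tested, against 14.1% of all genes it tested. Kidney tissue mixes many cell types, and in bulk RNA a lower share of cells that express a gene cannot be told apart from less RNA per cell. The mean over the 11 measured leukocyte markers was 0.35 higher in ND (permutation p = 0.0156, adjusted p = 0.0467). It ran from 3.37 to 4.48 in ND and from 3.25 to 3.86 in control animals. The markers did not move together: 4 were called higher (CD3E, ITGB2, LCK and TYROBP) and 1 lower (CD14, -0.54, limma adjusted p = 0.0449). PTPRC differed by 0.10 without passing (adjusted p = 0.482). CD3E was above background in 5 ND animals and 0 controls, and ITGAM and S100A8 stayed under it on all arrays. The mean over the 8 endothelial markers was 0.37 higher without passing (adjusted p = 0.0547), and that over 3 adipose markers was 0.31 lower (adjusted p = 0.00648). In both the endothelial and the adipose mean, 1 gene was called. CLDN5 was called higher by 2.02 (limma adjusted p = 0.00370), while TEK differed by -0.53 without passing and KDR was under background. FABP4 was called lower (-0.89, adjusted p = 0.0160), while LEP differed by -0.02 and ADIPOQ was under background. Of the 5 fibroblast and smooth muscle markers, PDGFRB was called higher (0.65, adjusted p = 0.0361). The part of these shifts in the results was not tested.

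The SR proteins were represented by 11 genes, of which SRSF12 passed, as higher in ND. SRSF12, a less studied member of the family, had signals of 5.48 to 7.31 in ND animals with a median of 6.74, and of 4.54 to 6.30 in controls with a median of 5.71. The groups overlapped, but 8 ND animals lay above every control. The means were 6.52 ± 0.57 and 5.59 ± 0.47 (SD, n = 10 each), a difference of 0.92 ± 0.23 (SE), or 1.90-fold, with a limma adjusted p of 0.0174. The call was kept when any 1 animal was left out, and lost without both ND_47 and ND_92 (0.79, adjusted p = 0.0547). That last fit left out no control. ND_92 did not stand apart by its mean correlation to the other arrays (0.983, as for Control_156 and Control_157).

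Of the other SR genes, SRSF3 and SRSF5, which are broadly expressed SR proteins, had differences of -0.35 and -0.30 that did not pass (limma adjusted p = 0.152 and 0.163). SRSF5 ran from 10.55 to 11.87 in ND and from 11.28 to 12.24 in controls, and its lowest value came from ND_47. After arrays were shifted to the same median, which lowered every difference by 0.09, both genes passed as lower (-0.43 and -0.39, adjusted p = 0.0490 for each). The family's median difference was 0.10, with 8 genes above 0 and 3 below.

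SRSF6, an SR protein that binds exonic enhancers, was the one gene of the group whose probe sets were called in opposite directions. It had 6 probe sets. The brightest, Ssc.7881.1.A1_at, ran from 11.45 to 12.18 in ND and from 10.74 to 11.90 in controls. Its difference of 0.45 ± 0.14 just missed the threshold (limma adjusted p = 0.0551). A second probe set, Ssc.30743.1.S1_at, ran from 10.82 to 11.61 in ND with a median of 11.06, and from 10.10 to 10.67 in controls with a median of 10.53. Every ND animal lay above every control on this probe set. The difference was 0.65 ± 0.09, or 1.57-fold, with an adjusted p of 0.000253.

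Of the remaining SRSF6 probe sets, the 3 that share a sequence cluster by their identifiers had lower ND means, and 2 of them passed. Ssc.9241.2.A1_at ran from 8.86 to 9.35 in ND and from 9.08 to 9.67 in controls, a difference of -0.31 ± 0.07 (limma adjusted p = 0.0162). Ssc.9241.2.A1_a_at differed by -0.27 ± 0.08 (adjusted p = 0.0384). Ssc.9241.1.A1_at differed by -0.27 ± 0.09 without passing (adjusted p = 0.0900), as did Ssc.17252.1.S1_at with -0.12 ± 0.11 (adjusted p = 0.445). The groups overlapped on each of these 4, by contrast with Ssc.30743.1.S1_at.

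The split between SRSF6 probe sets was then tested within arrays, by taking the brightest probe set minus each other one in the same animal. This test was added after the values had been seen, and ran over 1763 pairs of probe sets of all genes that were above background on all arrays, of which 4.25% were called. Among the group's 44 pairs in 30 genes, 3 were called, and all 3 were SRSF6. They share the brightest probe set and the Ssc.9241 cluster, and the test uses the values in which the split had been seen, so they describe 1 split and are no independent evidence of it. Counted by gene, 1 of 30 members (3.33%) had a called pair, against 62 of 1318 genes in all (4.7%). The brightest probe set exceeded Ssc.9241.2.A1_at by 2.71 ± 0.32 in ND and by 1.95 ± 0.45 in control kidney (SD, n = 10 each), a change of 0.75 ± 0.17 (limma adjusted p = 0.0115). The changes against Ssc.9241.2.A1_a_at and Ssc.9241.1.A1_at were both 0.71 (adjusted p = 0.0205 and 0.0270). Against Ssc.17252.1.S1_at the change was 0.56 (adjusted p = 0.0516), and against Ssc.30743.1.S1_at -0.20 (adjusted p = 0.421).

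The opposite calls were kept under several settings and lost in the smallest subset. Ssc.30743.1.S1_at and Ssc.9241.2.A1_at were called with any 1 animal left out, with highest adjusted p of 0.000711 and 0.0319. They also passed after the shift to equal medians (0.56 and -0.40, adjusted p = 0.00170 and 0.00282) and with a term for animal number (0.66 and -0.38, adjusted p = 0.00574 and 0.0395). Within the 8 animals with the highest numbers (Control_184 to Control_199), neither passed (0.71 and -0.42, adjusted p = 0.126 and 0.184). Ssc.9241.2.A1_a_at kept its call in 7 of the 20 fits that leave out 1 animal (ND_22, ND_47, ND_100, ND_198, Control_134, Control_197 or Control_199) and lost it in the others, with an adjusted p of up to 0.0723. It also lost the call with the term for animal number (-0.33, adjusted p = 0.0925). The brightest probe set gained a call without ND_47, Control_190 or Control_199 (adjusted p 0.0279 to 0.0427), and without both ND_47 and ND_92 (0.0371). It also passed after quantile normalization (0.0398), with dim probe sets left out (0.0391) and with array quality weights (0.0296). The mean of the 6 probe sets differed by 0.02 (adjusted p = 0.759). The sources used here do not say which SRSF6 transcripts each probe set detects.

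**Figure D2:**
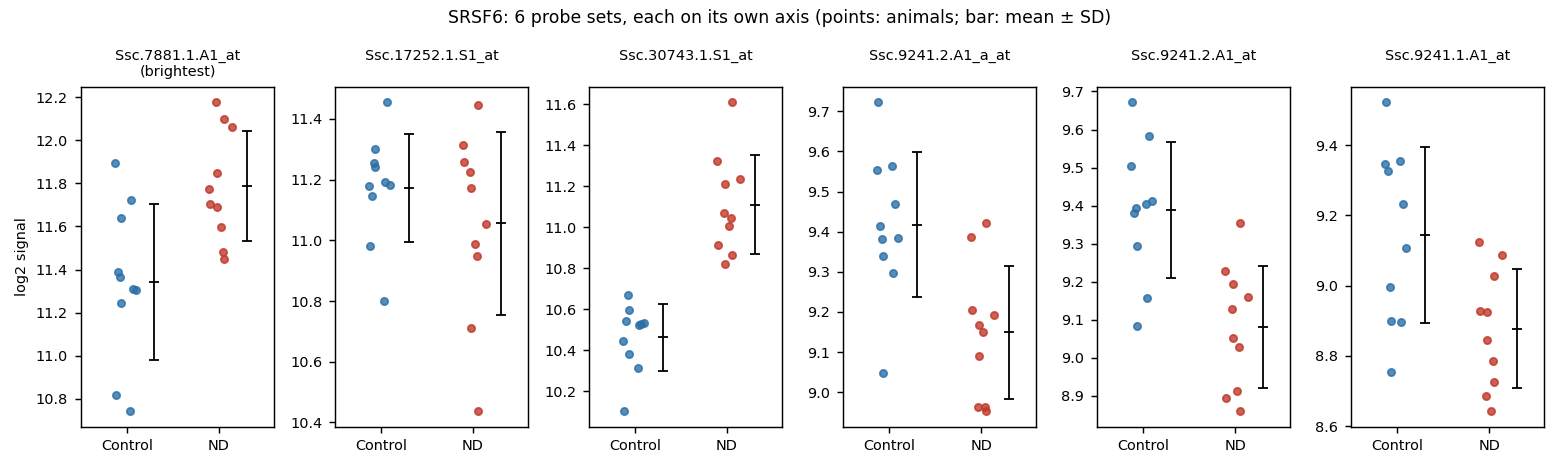
Signal of the 6 SRSF6 probe sets (log2, vertical axes, each probe set on its own scale) in the 10 control (blue) and 10 ND (red) animals, 1 point per animal, with the mean and SD as black bars. On Ssc.30743.1.S1_at all ND animals lie above all controls, while the ND means of the 3 probe sets of the Ssc.9241 cluster lie below the control means.

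Over the 39 genes with several probe sets, the differences took both signs in 21, or 53.8%, against 37.9% of all genes with several. Most of those differences did not pass. In 3 of the 39 genes any probe set was called, and across all 2261 such genes the share was 14.4%. Opposite calls were found in 4 genes on the whole array, of which SRSF6 is 1. By any probe set rather than the brightest, 10 members (9.26%) were called, against 11.1% of all genes, the added one being SRSF6. SRSF9 and RBM19 came nearest to a called split after SRSF6, with within-array changes of 0.36 (limma adjusted p = 0.0608) and -0.33 (adjusted p = 0.0765), and were named for that after the values had been seen.

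The hnRNP family had 17 measured genes, with 3 called higher and 1 lower, the most calls of the 10 prefixes. That is 23.5% of the family, against 9.99% of all genes, and the prefixes held from 2 to 22 genes. HNRNPH3, which binds G-rich RNA, had signals of 11.53 to 12.14 in ND with a median of 11.76, and of 10.93 to 11.71 in controls with a median of 11.30. Most ND animals were high: 6 lay above every control. The means of 11.79 ± 0.24 and 11.30 ± 0.24 (SD, n = 10 each) differed by 0.49 ± 0.10, or 1.40-fold, with a limma adjusted p of 0.00753.

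HNRNPH2, a close relative in the same subfamily, moved the other way. Its signals ran from 10.27 to 10.93 in ND with a median of 10.54, and from 10.58 to 11.08 in controls with a median of 10.81. The ranges overlapped in part, and the difference was -0.28 ± 0.08 (limma adjusted p = 0.0435). A dimmer probe set of the same gene was lower too, with 6.43 to 7.22 in ND against 7.06 to 7.98 in controls and 8 ND animals below every control (-0.57 ± 0.11, adjusted p = 0.00316). HNRNPH1, the other HNRNPH gene measured, differed by 0.10 (adjusted p = 0.455). These paralogs share near-identical stretches of coding sequence, and cross-hybridization between their probe sets was not tested.

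HNRNPK, a poly(C)-binding protein, was slightly but evenly higher. Its signals ran from 12.34 to 12.73 in ND with a median of 12.51, and from 12.12 to 12.49 in controls with a median of 12.26. The difference was 0.21 ± 0.05, or 1.15-fold (limma adjusted p = 0.0270), and all 10 ND animals lay above the control mean. Its second probe set did not pass (-0.08, adjusted p = 0.569).

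HNRNPU, a chromatin-associated RNA-binding protein, ran from 8.17 to 8.95 in ND with a median of 8.67, and from 8.07 to 8.62 in controls with a median of 8.31. The ranges overlapped over most of the control span. The difference was 0.32 ± 0.09 (limma adjusted p = 0.0336). After the shift to equal medians neither HNRNPK (0.12, adjusted p = 0.130) nor HNRNPU (0.23, adjusted p = 0.0681) passed.

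Of these calls, 3 were lost in some of the fits that leave out 1 animal, though the differences moved little. They stayed between -0.33 and -0.25 for HNRNPH2, 0.28 and 0.37 for HNRNPU, and 0.18 and 0.23 for HNRNPK. HNRNPH2 lost its call without ND_01, ND_22, ND_31, ND_86, ND_92 or ND_193, or without Control_02, Control_134, Control_155, Control_156, Control_184, Control_190 or Control_197 (limma adjusted p 0.0515 to 0.0800). HNRNPU lost it without ND_86, ND_92, ND_100, Control_02, Control_157, Control_187 or Control_197 (adjusted p 0.0501 to 0.0624). HNRNPK lost it without ND_86, Control_155, Control_157 or Control_190 (adjusted p 0.0505 to 0.0520). HNRNPH3 kept it in all 20 such fits. HNRNPK also did not pass as the mean of its probe sets (0.06, adjusted p = 0.379), with array quality weights (0.17, adjusted p = 0.0594) or without both ND_47 and ND_92 (0.17, adjusted p = 0.0714). HNRNPH2 did not pass without those 2 animals (-0.31, adjusted p = 0.0543) or with an intensity trend in the fit (adjusted p = 0.05005).

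HNRNPL, which binds CA repeats, had the widest ND spread of the family and was singled out after its values were seen. Its signals ran from 8.38 to 10.75 in ND with a median of 10.07, and from 10.18 to 11.20 in controls. In all, 5 ND animals were below every control and the rest were within the control range. The difference of -0.88 ± 0.32 did not pass (limma adjusted p = 0.0963), except after the median shift (-0.97, adjusted p = 0.0490). HNRNPA1, a repressor of exon inclusion, differed by -0.02 with a 95% interval of -0.37 to 0.33 (adjusted p = 0.945).

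The SNRP genes showed no call in 10 genes and the LSM genes 1 in 6, LSM12 and LSM14A among the latter not being subunits of the snRNP rings. The SNRP median difference was 0.0051. SNRPB2 and SNRPA1, a pair of proteins that bind each other in the U2 snRNP, had the smallest p of the family and differed by -0.18 (limma adjusted p = 0.165) and 0.23 (adjusted p = 0.402).

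LSM2, a subunit of the ring that holds U6 RNA in the nucleus and of the ring that promotes decapping in the cytoplasm, was the most significant gene of the group by its brightest probe set. Its signals ran from 8.73 to 9.45 in ND with a median of 9.09, and from 8.08 to 8.74 in controls with a median of 8.58. Here 9 ND animals lay above every control, and the lowest ND value almost met the highest control. The means of 9.07 ± 0.27 and 8.52 ± 0.21 (SD, n = 10 each) differed by 0.55 ± 0.11, or 1.46-fold (limma adjusted p = 0.00377). The other ring subunits measured, LSM3, LSM6 and LSM7, differed by 0.08, 0.0041 and 0.07 without passing (adjusted p = 0.718, 0.984 and 0.471).

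At the branch point and 3' splice site, SF3A1 was called lower and the other 6 SF3 genes did not pass. SF3A1, a core subunit of the SF3a complex of the U2 snRNP, ran from 8.55 to 9.03 in ND with a median of 8.64, and from 8.84 to 9.23 in controls with a median of 8.95. The values of 9 ND animals lay below every control, and 1 ND animal was inside the control range. The difference was -0.28 ± 0.06 (limma adjusted p = 0.00935), and the call was kept with any 1 animal left out. SF3B6 differed by -0.19 (adjusted p = 0.201). SF3B1, the branch-point-contacting scaffold of SF3b, differed by 0.09 with a 95% interval of -0.15 to 0.34 (adjusted p = 0.588). Of the U2AF genes, U2AF1L4 differed by 0.20 (adjusted p = 0.244), and U2AF2, the large subunit that binds the polypyrimidine tract, was under background on all arrays.

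None of the 9 PRPF genes passed. PRPF38B came closest, with signals of 8.13 to 8.70 in ND and 8.29 to 8.85 in controls. Of the ND animals, 6 lay below every control. The difference was -0.26 ± 0.08 (limma adjusted p = 0.0612), and it passed without ND_47, Control_197 or Control_199 (adjusted p 0.0167 to 0.0487). It also passed after quantile normalization, the median shift, array quality weights and without both ND_47 and ND_92 (adjusted p = 0.0495, 0.00923, 0.0214 and 0.0313). PRPF39, a U1-associated protein, differed by 0.30 (adjusted p = 0.134). The family median was -0.05, with 2 genes above 0 and 7 below.

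None of the 22 RBM genes, a prefix that joins RNA-binding proteins of many functions, passed either. Their differences ran from -0.30 (RBM19, a factor of ribosomal RNA processing, limma adjusted p = 0.114) to 0.39, and 11 were above 0 and 11 below. RBM34 differed by -0.29 (adjusted p = 0.143). RBM19 passed without ND_47 (adjusted p = 0.0221), without both ND_47 and ND_92 (0.0231), after the median shift (0.0400) and with array quality weights (0.0183). RBM3, which rises on cooling in many tissues, ran from 11.01 to 12.94 in ND and from 10.42 to 13.01 in controls, so the groups covered nearly the same span. Its difference was -0.29 with a 95% interval of -1.0 to 0.43 (adjusted p = 0.561).

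**Figure D3:**
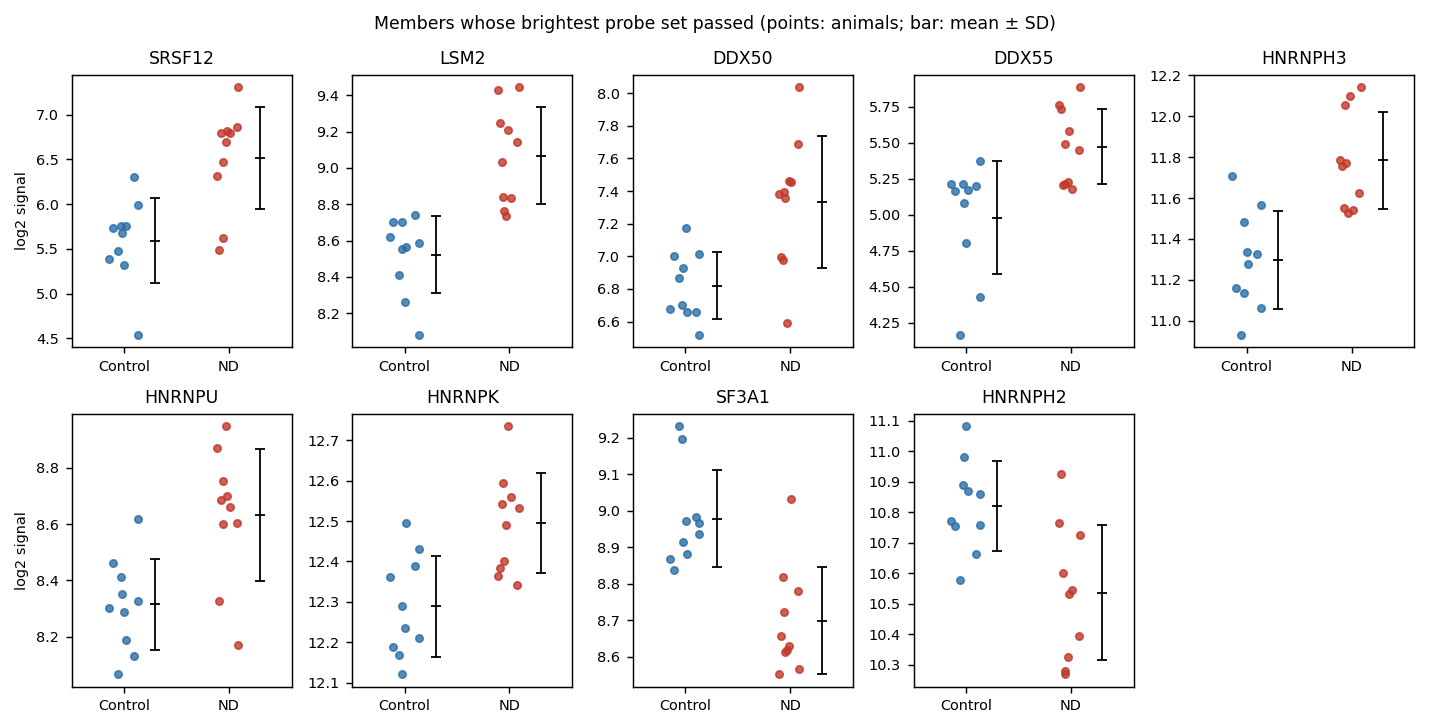
Signal (log2, vertical axes, each gene on its own scale) of the 9 called genes in the 10 control (blue) and 10 ND (red) animals, 1 point per animal, with the mean and SD as black bars. The groups overlap for all 9, least for LSM2 and SF3A1, where 9 ND animals lie outside the control range.

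The DEAD-box helicases gave 2 calls in 20 genes, both higher, and the 4 DEAH-box helicases none. DDX50, a nucleolar helicase related to DDX21, ran from 6.59 to 8.04 in ND with a median of 7.39, and from 6.52 to 7.17 in controls with a median of 6.78. The low ND animals lay inside the control range. The means of 7.33 ± 0.40 and 6.82 ± 0.21 (SD, n = 10 each) differed by 0.51 ± 0.14 (limma adjusted p = 0.0303).

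DDX55, a helicase of large ribosomal subunit production, ran from 5.18 to 5.89 in ND with a median of 5.47, and from 4.16 to 5.37 in controls with a median of 5.17. The difference of 0.49 ± 0.15 was the call nearest to the threshold (limma adjusted p = 0.0460). The low end of the controls, not the high end of the ND animals, set the wider spread. DDX50 lost its call without ND_01, ND_86, ND_92, Control_156, Control_187, Control_190 or Control_197 (adjusted p of 0.05002 at the lowest and 0.0547 at the highest). DDX55 lost it without ND_01, ND_47, ND_86, ND_92, ND_100 or ND_194, or without any control but Control_134 and Control_199 (adjusted p 0.0506 to 0.0775). Without both ND_47 and ND_92, neither DDX50 (0.41, adjusted p = 0.0733) nor DDX55 (0.43, adjusted p = 0.123) passed. DDX55 also lost its call after quantile normalization (0.40, adjusted p = 0.0847) and with an intensity trend (adjusted p = 0.0564).

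DDX11, a DNA helicase of sister chromatid cohesion despite its prefix, was singled out after its values were seen. It ran from 5.05 to 6.66 in ND and from 4.62 to 5.66 in controls, with 5 ND animals above every control. The difference was 0.63 ± 0.19 (limma adjusted p = 0.0530), and it passed without ND_193, ND_198 or Control_199 (adjusted p 0.0226 to 0.0383), and after the median shift (0.0490). Of the DEAH-box genes, DHX15, which takes spent spliceosomes apart, differed by 0.18 (adjusted p = 0.169) and DHX30 by -0.09 (adjusted p = 0.366).

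DDX46 and DHX9, also named after their values were seen, spread over far more of the scale than the rest of the group. DDX46, the helicase that readies the U2 snRNP, ran from 6.30 to 8.99 in ND and from 5.65 to 9.58 in controls. DHX9, a nuclear helicase with many partners, ran from 5.33 to 9.75 in ND and from 6.50 to 9.58 in controls. For both, the spread within a group was several times the difference between groups (0.41 and -0.14, limma adjusted p = 0.568 and 0.858). These 2 genes, RBM3 and HNRNPL were the 4 members with a pooled SD above 0.7, where the median pooled SD of the group was 0.27.

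The animal numbers were not balanced between the groups, and the sources used here do not say what they stand for. Low numbers, up to 100, held 7 ND animals and 1 control, Control_134 to Control_157 made up a middle range of 4 controls, and the high numbers, Control_184 to Control_199, held 3 ND animals and 5 controls. With a term for low numbers in the model, LSM2 was the 1 member called (0.56, limma adjusted p = 0.0401), or 0.926% of members, while 2.78% of all genes were called. Within the 8 animals of high number, no member was called and 0.325% of all genes were. All 9 called genes kept their direction in both, but the sizes were not alike.

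The ND values of DDX50 were split by animal number. They lay between 7.36 and 8.04 in the 7 ND animals of low number and between 6.59 and 6.99 in the 3 of high number, and the 5 controls of high number had a mean of 6.73. The difference fell to 0.15 with the term and 0.13 within the high numbers (limma adjusted p = 0.694 and 0.624). SF3A1 had the same ND mean of 8.70 in both ranges of numbers, against control means of 8.97 to 8.99 (difference with the term -0.28, adjusted p = 0.0818). HNRNPU was likewise even, with ND means of 8.62 and 8.65 against control means of 8.28 to 8.37 (difference with the term 0.33, adjusted p = 0.151).

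RBM3 and DDX46 had control values split by animal number. RBM3 had a mean of 12.65 in the 4 controls of the middle range and of 11.20 in the 5 of high number, with Control_02 at 13.01. DDX46 had means of 7.89 and 6.43 in the same controls, with Control_02 at 9.58. This split was not tested.

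**Figure D4:**
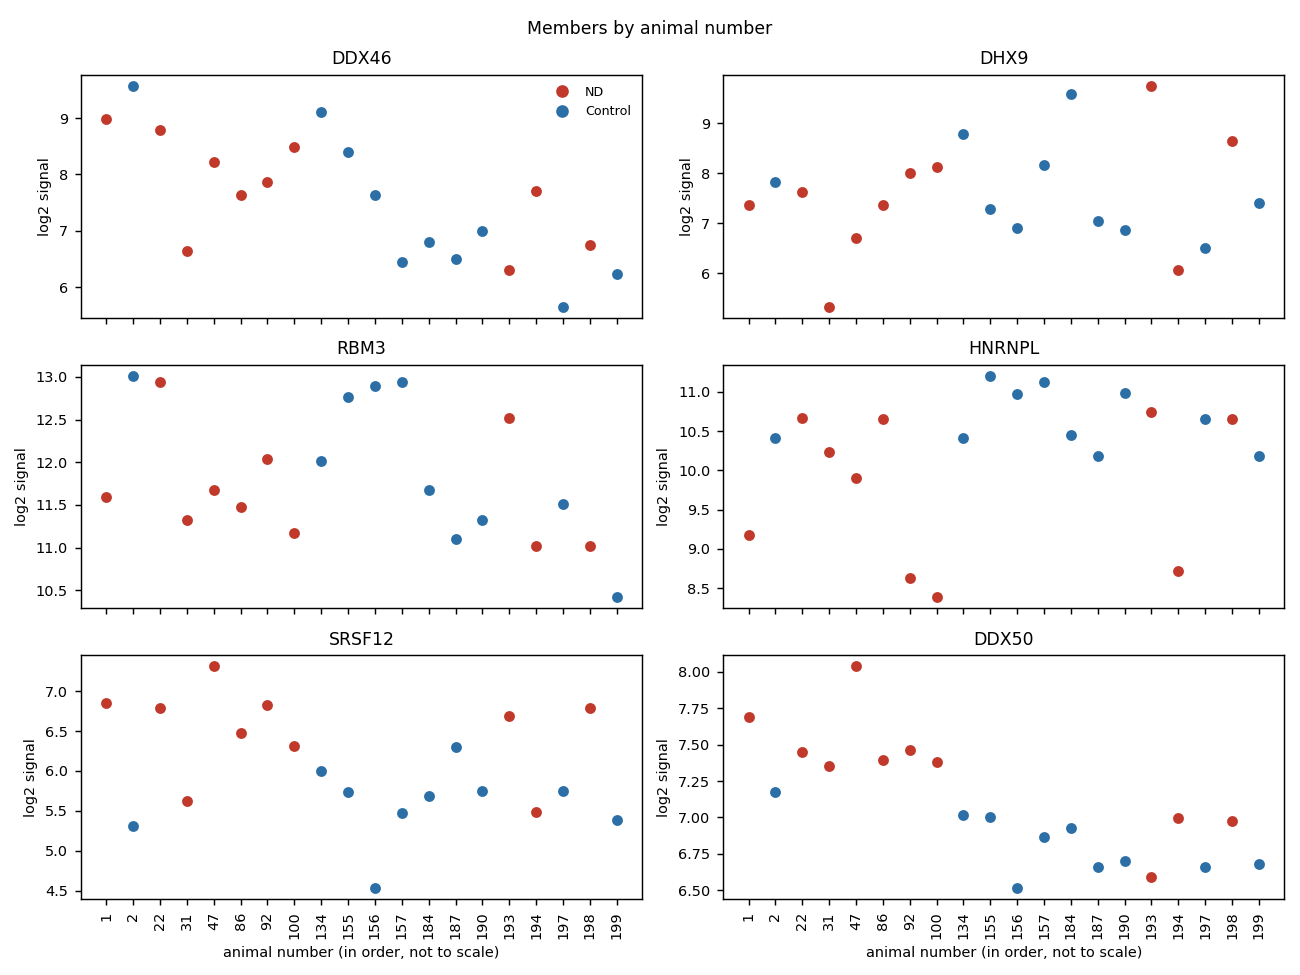
Signal (log2, vertical axes) of DDX46, DHX9, RBM3, HNRNPL, SRSF12 and DDX50 in the 20 animals, set out in order of animal number (horizontal axis, not to scale), with ND animals in red and controls in blue. DDX50 is high in the 7 ND animals of low number (7.36 to 8.04) and lies within the control range in the other 3.

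Pre-mRNA processing genes outside the 10 prefixes were read beside the group, from a list of 125 of which 76 were measured. Of these, 8 were called higher and 3 lower (14.5%, against 9.99% of all genes), and the median difference was 0.07 with 48 genes above 0. Like the group itself, the list was drawn up with earlier results of these data known, so its count is not independent evidence. With the term for animal number TFIP11 alone of the 11 was called (-0.61, limma adjusted p = 0.0421), and within the high numbers MBNL3 alone (0.38, adjusted p = 0.0397).

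The 6 with the smallest p were all higher. TXNL4A, a small protein of the U5 snRNP, ran from 8.75 to 9.52 in ND and from 8.10 to 8.95 in controls (0.55 ± 0.11, limma adjusted p = 0.00509). The antiviral RNA helicase MOV10 ran from 6.44 to 7.74 in ND and from 5.89 to 6.66 in controls (0.80 ± 0.17, adjusted p = 0.00671). RBFOX2 and MBNL3, regulators of tissue-specific exons, differed by 0.38 and 0.62 (adjusted p = 0.00853 and 0.0108). ZRSR2, which recognises the 3' splice site of minor introns, differed by 0.69 (adjusted p = 0.0157).

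UPF3B and UPF3A, paralogs that act in nonsense-mediated decay, were called in opposite directions. UPF3B ran from 8.47 to 8.94 in ND and from 8.07 to 8.67 in controls (0.40 ± 0.08, limma adjusted p = 0.00736), and as the mean of its probe sets did not pass (0.31, adjusted p = 0.0715). UPF3A, named with the other lower genes after its values were seen, ran from 5.54 to 8.15 in ND with a median of 6.18, and from 6.83 to 8.07 in controls with a median of 7.84. Most ND animals were low: 7 lay below every control and 1 lay above them all. The difference was -1.15 ± 0.29, a 2.22-fold lower signal (adjusted p = 0.0213), and it did not pass without both ND_47 and ND_92 (-0.95, adjusted p = 0.0678). TFIP11, which works with DHX15 in spliceosome disassembly, was lower by 0.49 on the log2 scale, with a fitted difference of -0.49 ± 0.12 (adjusted p = 0.0187).

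The third lower gene, KHDRBS3, was near background in ND, where 8 of 10 animals were above it and the lowest value was 2.74. Its difference was -1.13 ± 0.32 (limma adjusted p = 0.0379). The call was lost without any 1 of ND_01, ND_31, ND_86, ND_92, ND_100, ND_194, Control_134, Control_155, Control_156, Control_184 and Control_197 (adjusted p 0.0533 to 0.0669). Without both ND_47 and ND_92, KHDRBS3, LUC7L3 and GEMIN5 did not pass (adjusted p = 0.0669, 0.0513 and 0.0543). KHDRBS3 did not pass with array quality weights either (0.0515), nor GEMIN5 as the mean of its probe sets (0.0956). LUC7L3 (0.38, adjusted p = 0.0299) and GEMIN5 (0.44, adjusted p = 0.0380) completed the higher genes and were named after their values were seen. LUC7L3 lost its call without ND_86, ND_92, Control_02, Control_157 or Control_197 (adjusted p 0.0512 to 0.0572). GEMIN5 lost it without ND_86, ND_92, ND_100, Control_02, Control_155, Control_156, Control_157 or Control_187 (adjusted p 0.0504 to 0.0677).

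CLK1, TRA2B, PTBP1 and CIRBP, which the naming rule listed, did not pass. CLK1, a kinase of SR proteins, differed by 0.31 (limma adjusted p = 0.133), and TRA2B, an SR-like splicing activator, by 0.12 (adjusted p = 0.600). PTBP1, a repressor that binds pyrimidine tracts, differed by 0.25 (adjusted p = 0.0639) and passed without ND_31 (adjusted p = 0.00739). CIRBP, a cold-induced RNA-binding protein like RBM3, differed by 0.50 with a 95% interval of -0.12 to 1.11 (adjusted p = 0.247).

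**Figure D5:**
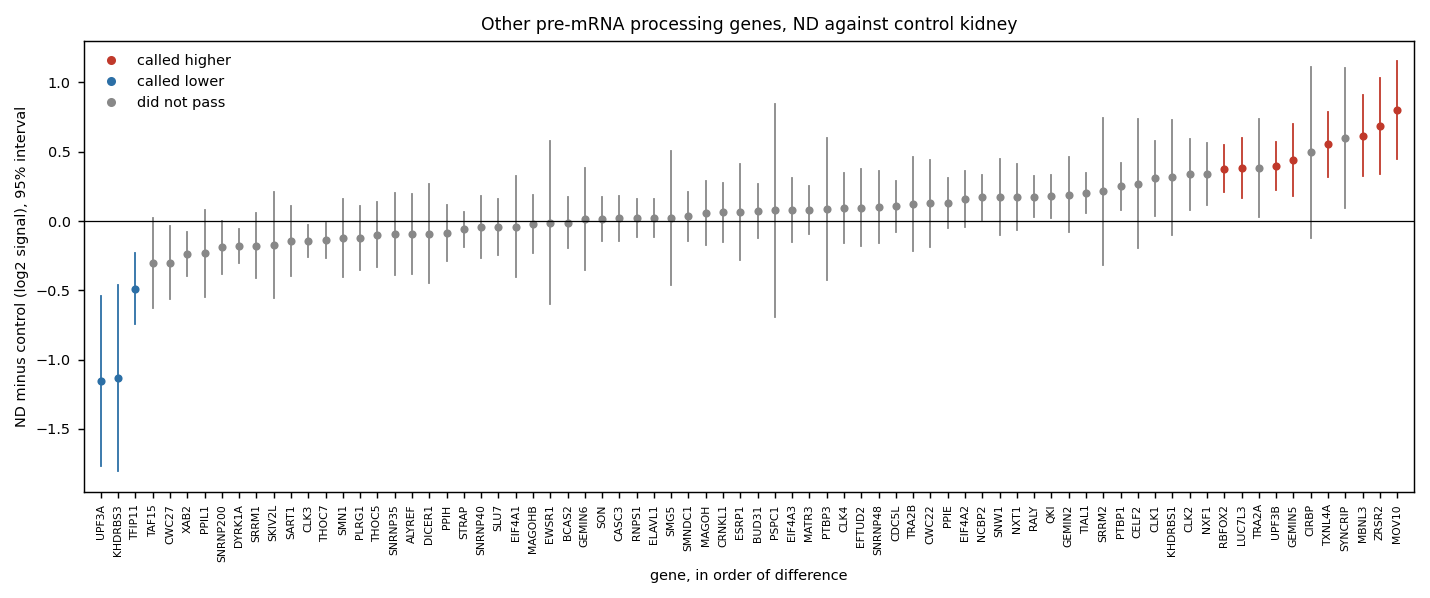
Difference between ND and control kidney (log2 signal, vertical axis) for the 76 other pre-mRNA processing genes, 1 point each with its 95% interval, sorted by difference along the horizontal axis. Red points were called higher (8) and blue points lower (3); UPF3A and KHDRBS3 lie farthest below 0.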

How the data were processed

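Total RNA of 1 kidney sample per pig (10 ND, 10 control) was labelled with biotin, from 250 ng, and hybridized to 1-colour porcine arrays, per the labels' protocols. The labels' protocols speak of 2 specimens per animal but give 1 array per animal number, so p-values measure the spread between arrays taken as animals. The authors deposited a log2 value for each probe set on each array. That unit was inferred from the range, 0.88 to 16.2; background correction, summarization and normalization are not given in the sources used here, and they can move the balance of higher and lower calls. Of 24123 probe sets, 124 controls were left out. Gene symbols came from the platform annotation: 10069 probe sets had 1 symbol, 198 had several and 13732 had none here, and no gene was named from several. All 108 members matched RefSeq by Entrez ID. DDX3X was named only in 3 probe sets with several symbols, and U2AF1, DHX58 and UPF1 in none with a single one.

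ND and control were compared with limma 3.58.1 (lmFit, eBayes, no trend) in R 4.3.3, adjusted by Benjamini-Hochberg over 23999 probe sets, after a test on simulated data. Array measures were compared by permutation of the groups (100000 resamples, two-sided, scipy 1.17.1). Ranges of values are over 10 animals, and the number of arrays limits the precision. Genes were named if called, if among the 2 smallest p of a prefix, if their probe sets disagreed, or if on a short list (SRSF5, SRSF6, SF3B1, U2AF1, HNRNPA1, RBM3, DDX3X, DHX58); of the other list, the 6 smallest p that passed and CIRBP, CLK1, PTBP1, TRA2B and UPF1. Others are marked as chosen after their values were seen. The members and lists were chosen with earlier results of these data known. Alternatives were other scalings, filters and weights, a term for animal number, subsets of animals, each animal left out, and the mean of a gene's probe sets; the within-array test of probe sets was added after seeing the data.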

Additional observations from a re-analysis of the deposited data

Results flagged for a closer look

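Among the named genes, 102 sets of 10 values (1 probe set in 1 group) were examined for an animal far from the others. Dixon's test flagged 3 of them (2.94%), where the nominal rate of that test is about 1 in 20. DHX15 in ND_47 had a signal of 12.42, the highest of the ND group, with the next at 11.83 and the lowest at 11.54. SRSF5 in ND_47 had a signal of 10.55, the lowest of the ND group, with the next at 11.18 and the highest at 11.87. Both come from the array with the lowest mean correlation to the others (0.966). U2AF2 in Control_197 had a signal of 1.58, with the next at 1.56 and the lowest at 1.53, all under background.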

How the results depend on the processing

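All 9 called members kept their direction under every alternative run. Counts of members called higher and lower were 7 and 2 as reported. Shifting arrays to the same median gave 6 higher and 19 lower (23.1% of members called in either direction, against 30.3% of all genes). Quantile normalization gave 8 higher and 3 lower (10.2% against 11.2%). Array quality weights gave 7 higher and 4 lower (10.2% against 11.5%), and an intensity trend 6 higher and 1 lower (6.48% against 9.50%). The term for animal number gave 1 higher and 0 lower, the 8 animals of high number gave 0 and 0, and leaving out ND_47 and ND_92 gave 4 higher. Leaving out 1 animal at a time gave 3 (without ND_86) to 9 (without Control_199) higher, with 4 without ND_92, Control_157, Control_187 or Control_197. The same fits gave 1 to 4 lower, with 4 without ND_47. They gave 1 lower wherever HNRNPH2 lost its call, except without Control_197, where PRPF38B was gained. Of members, 3.70% were called without ND_86 and 11.1% without Control_199, against 8.10% and 11.2% of all genes. For the other pre-mRNA processing list, reported as 8 and 3, the shift gave 8 higher and 9 lower, and the term 0 and 1. Animals of high number gave 1 and 0, and leaving out ND_47 and ND_92 gave 6 higher and 1 lower.

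Differences that turned sign, none of them called, were as follows. In animals of high number they were -0.049 for SNRPA1, -0.10 for U2AF1L4, 0.013 for SRSF5, 0.23 for HNRNPA1, 0.32 for RBM3, 0.68 for DHX9, -0.035 for CIRBP and -0.28 for TRA2B. With the animal-number term they were -0.039 for LSM7, -0.54 for DDX46, 0.22 for DHX9 and -0.031 for TRA2B. LSM7 was -0.015 after the median shift, HNRNPA1 0.020 after quantile normalization, and TRA2B -0.00057 without ND_47 and ND_92. With 1 animal left out, HNRNPA1 ran from -0.081 to 0.052 and DHX9 from -0.39 to 0.10. The cause was not tested. No paired analysis was possible because the groups share no animal number. Members under background on all arrays carry only a bound, and 10 animals a group left a median 95% interval of 0.24 to each side.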
